A study of Sus scrofa with 8 samples.

Results

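Proneural basic helix-loop-helix (bHLH) activators and the HES and HEY repressors that oppose them were examined in porcine induced pluripotent stem cells (piPSCs) with and without IRF-1 overexpression. The 9 genes are NEUROG1, NEUROG2, NEUROD1, NEUROD4, NHLH1, OLIG3, HES1, HES5 and HEY1, out of 24358 genes in the count table, and each was found under its pig Ensembl symbol. They were selected on their levels in the same libraries and the same contrast that are described here. Their values, SEs and calls are therefore given as a description, and no call is read as a test of these genes. RNA-seq was done on 4 libraries of DOX-hLIF-2i piPSCs, which are fibroblast-derived cells kept by doxycycline-driven OCT4, SOX2, KLF4 and MYC transgenes in medium with LIF and inhibitors of GSK3 and MEK. Replicates 1 and 3 are IRF-1 overexpressing cells with the PB-CAG-IRF1-Flag transposon vector, whereas replicates 6 and 8 are control cells that received PB-CAG-Flag instead. The CAG promoter is in both vectors, and both groups were selected with puromycin. The sample labels name an LCDMV culture system, describe the removal of feeder cells by a short plating step, and give the genotype as IRF-1 overexpression for all 4 libraries, so the division into groups rests on the library titles and on the published legend that names which of these titles are overexpressing and which are control cells. Nothing in the labels says that replicates came from separate cultures, and p-values therefore measure the spread between these libraries, which may be technical.

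The libraries held 24923319 and 20858333 counts in the overexpressing group and 15925429 and 17097669 counts in the control group. A count of 3 in a library was taken as the floor, which corresponds to between 0.121 and 0.192 CPM (counts scaled to library size). IRF1, the gene carried by the vector, had 8206 and 5485 counts in overexpressing replicates 1 and 3 and 55 and 56 counts in control replicates 6 and 8. Both overexpressing libraries were far above both controls, with a log2 fold change of 6.46 (SE 0.21). Spread within each group exceeded counting noise, with a chi-square per degree of freedom of 17.9 between the overexpressing libraries and 31.3 between the controls.

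Proneural bHLH proteins pair with E proteins on E-box sequences and switch on neuronal genes, among them the Notch ligand DLL1. Notch signalling in the neighbouring cell then induces HES and HEY repressors, which hold proneural genes down, and ID proteins block the same activators by binding their E protein partners. In embryonic neural tissue this exchange sets which cells leave the progenitor state.

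NEUROG1 and NEUROG2, the neurogenins that start neurogenesis in sensory ganglia and in the dorsal brain, were read in the overexpressing cells and hardly in the controls. NEUROG1 (ENSSSCG00000014309, chromosome 2, 137765942 to 137766682, minus strand, build Sscrofa11.1) had 117 and 127 counts in overexpressing replicates 1 and 3 and 1 count in each control. The pooled ratio was 88.5-fold, with an exact 95% interval from 24.2 to 735 that covers counting error only. NEUROG2 (ENSSSCG00000033479, chromosome 8, 110201161 to 110201979, plus strand) had 85 and 49 counts with IRF-1 overexpression against 0 in both controls. Against 3 counts per control library, it was at least 15.9-fold higher. The groups did not overlap for either gene, and the overexpressing libraries were in opposite order, with replicate 3 higher for NEUROG1 and replicate 1 higher for NEUROG2. In bulk samples, fewer cells of a type and less RNA per cell cannot be told apart.

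The genes that act after the neurogenins had at most 23 counts in any library. NEUROD4 (ENSSSCG00000035778, chromosome 5, 20046937 to 20057397, plus strand), a neuronal differentiation factor, had 23 and 6 counts with IRF-1 overexpression against 0 and 1 in control cells. Its pooled ratio was 21-fold with an exact 95% counting interval from 3.49 to 859, and most of its counts lay in replicate 1. NEUROD1 (ENSSSCG00000016011, chromosome 15, 87175766 to 87179819, minus strand), a factor of neuronal and endocrine differentiation, had 4 counts in overexpressing replicate 1 and 0 in the other 3 libraries, so no fold change is given. NHLH1 (ENSSSCG00000006384, chromosome 4, 90109057 to 90109458, minus strand), which marks newly formed neurons, had 4 and 11 counts with IRF-1 overexpression against 12 and 9 in control cells. These groups overlapped, with a log2 fold change of -0.91 (SE 0.702) that became -0.25 when overexpressing replicate 1 was left out and -1.94 when replicate 3 was.

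OLIG3 (ENSSSCG00000004155, chromosome 1, 26800671 to 26801489, plus strand), a factor of dorsal neural progenitors, went the other way. It had 6 and 24 counts in overexpressing replicates 1 and 3 and 82 and 69 in the controls. Both controls were above both overexpressing libraries, and the ratio of mean CPM was 6.59-fold lower. The log2 fold change was -2.74 (SE 0.639), and leaving out overexpressing replicate 1 gave -1.97 and overexpressing replicate 3 gave -4.21.

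**Figure D1:**
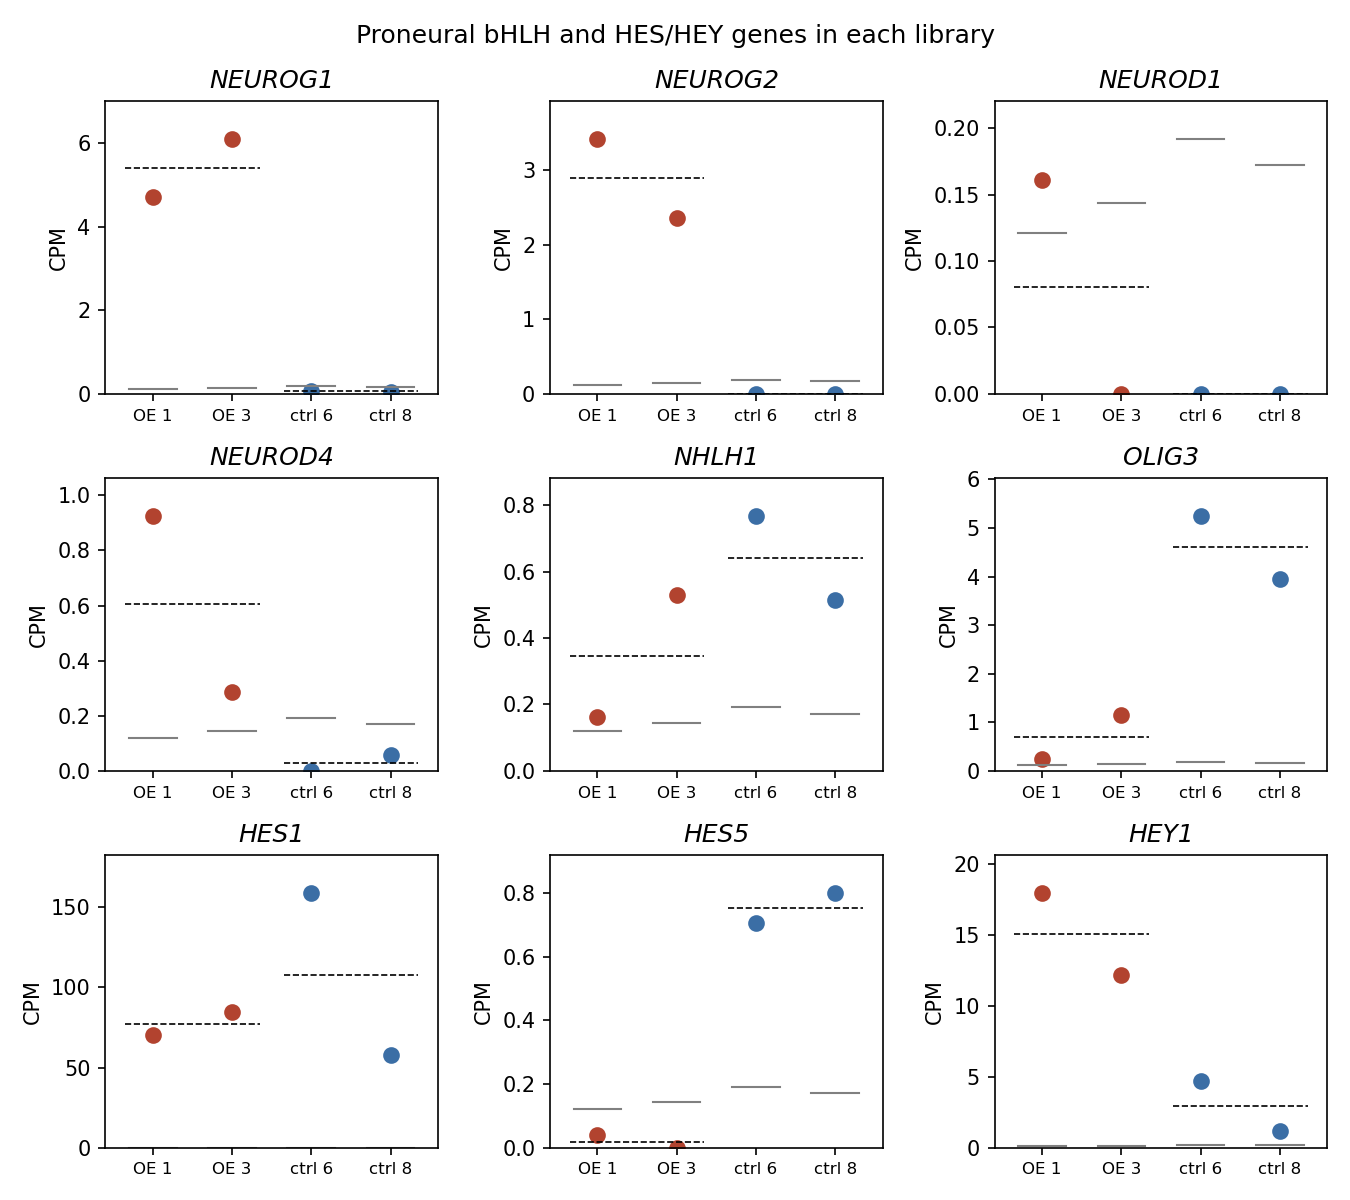
CPM of each of the 9 genes (vertical axes, linear and separate for each gene) in IRF-1 overexpressing replicates 1 and 3 (OE, red) and control replicates 6 and 8 (ctrl, blue). Dashed lines are group means and grey lines the floor of 3 counts in each library; NEUROG1, NEUROG2 and HEY1 are higher in both overexpressing libraries, OLIG3 and HES5 in both controls, and control replicate 6 has the highest HES1.

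HES1, the Notch-induced repressor that keeps progenitors cycling, had the highest level of the 9 genes per gene length and differed between the controls. HES1 (ENSSSCG00000031356, chromosome 13, 131135530 to 131140304, plus strand) had 1742 and 1759 counts in the overexpressing libraries, 2481 in control replicate 6 and 1011 in control replicate 8. In CPM these were 70.1 and 84.6 against 159 and 57.8, so that both overexpressing libraries lay between the controls. The log2 fold change was -0.48 (SE 0.395). It turned to 0.42 without control replicate 6 and reached -1.03 without control replicate 8, so its direction depends on which control is used.

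HES5, the other main Notch target of neural progenitors, was low in every library. HES5 (ENSSSCG00000037304, chromosome 6, 64409831 to 64410496, minus strand) had 1 and 0 counts with IRF-1 overexpression against 11 and 14 in control cells. Its pooled ratio was 34.5-fold lower, with an exact 95% counting interval from 5.64 to 1415.

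HEY1 is a relative of the HES repressors that also answers to Notch. Among HES1, HES5 and HEY1, only HEY1 had a higher CPM in both overexpressing libraries than in both controls. HEY1 (ENSSSCG00000006159, chromosome 4, 56859606 to 56866039, plus strand) had 446 and 254 counts with IRF-1 overexpression against 74 and 21 in control cells. Both overexpressing libraries were above both controls, and the ratio of mean CPM was 5.08. The log2 fold change was 2.36 (SE 0.546), and leaving out control replicate 6 gave 3.64 and control replicate 8 gave 1.68.

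Of the 9 genes, 7 passed the filter on low counts, and NEUROD1 and NEUROD4 did not. A gene was called when its adjusted p was below 0.05 and its expression changed by 1 or more on the log2 scale. NEUROG1, NEUROG2 and HEY1 (3 genes) were called higher and OLIG3 and HES5 (2 genes) lower, where 8.61% of the 13250 genes tested were called higher and 10.6% lower. The genes were chosen from this contrast, so these calls and their changes between fits are a description, and nothing is read from their count. NEUROG1, NEUROG2 and HES5 were too low for the filter in both libraries of their lower group, so they had to differ to be tested. This also holds for called genes in several lists below, where counts of calls are given as a description. Without overexpressing replicate 1, OLIG3 and HEY1 were no longer called (log2 fold change -1.97 and 2.06), and HES5 was left with 0 counts in its lower group, so no fold change is given for it. Without overexpressing replicate 3 HES5 was not called (-4.02) while NEUROD4 was called higher (4.68), and without control replicate 8 HES5 was not tested and HES1 was called lower (-1.03). With no filter on low counts NEUROD4 was also called higher (4.11), and DESeq2 did not call it.

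Levels of different genes were compared as mean CPM per kilobase of the gene length in the table. In the control cells HES1 was highest at 29, followed by OLIG3 at 5.61, NHLH1 at 1.6, HES5 at 1.52, HEY1 at 0.616, NEUROG1 at 0.0818 and NEUROD4 at 0.00828, with NEUROG2 and NEUROD1 at 0. NEUROG1, NEUROD4, NEUROG2 and NEUROD1 were under the floor of 3 counts in both controls, so no order is read among them there. In the overexpressing cells the order was HES1 at 20.7, NEUROG1 at 7.3, NEUROG2 at 3.53, HEY1 at 3.13, NHLH1 at 0.858, OLIG3 at 0.852, NEUROD4 at 0.176, HES5 at 0.0407 and NEUROD1 at 0.0326. NEUROG2 and HEY1 overlapped between the overexpressing libraries, as did NHLH1 and OLIG3 and also HES5 and NEUROD1, and NHLH1 and HES5 overlapped between the controls. HES1 thus stood first in both groups, and NEUROG1 moved from below HEY1 to the place after HES1. The gene models of NEUROG1, NEUROG2, NHLH1, OLIG3 and HES5 have lengths that are multiples of 3 (741, 819, 402, 819 and 495 bases), so they may hold coding length alone, and reads on untranslated parts would then not be counted.

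The tested genes nearest to NEUROG1 in pattern were TFAP2A, DGKG, TP73, MPPED2 and KRTDAP. Nearness was the Euclidean distance between centred log2(CPM + 0.5) values over the 4 libraries, among 11258 tested genes with a symbol, and it ran from 0.141 for TFAP2A to 0.293 for KRTDAP. TFAP2A, a transcription factor of surface ectoderm and neural crest, had 769 and 890 counts with IRF-1 overexpression against 45 and 47 in control cells. The 0.5 added is above the mean NEUROG1 level in the controls (0.0606 CPM), so this distance compresses large fold changes. TFAP2A was 13.2-fold higher, where NEUROG1 had a pooled ratio of 88.5-fold. That the genes nearest to NEUROG1 were also higher with IRF-1 overexpression follows from the choice. The genes nearest to HES1 were ALKBH7, CA2, MAP1LC3A, GABRR1 and CDC42EP1, at distances from 0.0968 to 0.194. They were chosen for their likeness over these libraries, so that they share the order of HES1, with control replicate 6 highest and control replicate 8 lowest, follows from the choice. None of the 5 was called with all libraries, and ALKBH7 (-1.08) and CA2 (-1.23) were called lower without control replicate 8. ALKBH7 shares exon bases with GTF2F1, PSPN and CLPP, and CA2 with an unnamed gene, so their counts are uncertain.

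Among 17 other neural bHLH activators, 12 had a named identifier and 1 was tested. That gene, ATOH8, was called lower (log2 fold change -2.02, SE 0.601, adjusted p = 0.0389 in edgeR), and the call was lost without overexpressing replicate 1 (-1.55), overexpressing replicate 3 (-2.63) or control replicate 8 (-1.32). ATOH7, which starts retinal ganglion cell formation, had 9 and 7 counts with IRF-1 overexpression against 0 in both controls, at least 1.92-fold higher. ATOH7 did not pass the filter, was called higher with no filter on low counts and was not called by DESeq2. OLIG1 (4 and 3 counts) and OLIG2 (3 and 5 counts) were at or just above the floor with IRF-1 overexpression and at 0 in both controls. The remaining genes had at most 3 counts in any library.

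ID2, ID3 and ID4 fell, while no call was made for the E proteins they bind. Of 7 genes in this list, 6 were tested, 3 were called lower (50%) and 0 higher, beside 10.6% and 8.61% of all genes tested, and the median log2 fold change was -1.39, beside 0.00 for all genes tested. ID3 had 219 and 431 counts with IRF-1 overexpression against 3772 and 2235 in control cells (log2 fold change -3.65, SE 0.446, adjusted p = 0.00123 in edgeR), and its value was -4.38 without overexpressing replicate 3. ID4 had 107 and 168 against 1311 and 481 counts (-3.18, SE 0.534, adjusted p = 0.00432 in edgeR), and -2.16 without control replicate 6. ID2 had 169 and 216 against 996 and 775 counts (-2.66, SE 0.273, adjusted p = 0.000703 in edgeR). Both controls were above both overexpressing libraries for each of these. TCF3, TCF4 and TCF12, the E proteins, had log2 fold changes of 0.27, 0.47 and -0.12. ID1 had 2 counts in control replicate 6 and 0 elsewhere, and its model shares 1994 exon bases with BCL2L1 on the opposite strand, so its level is uncertain.

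Other HES, HEY and related repressors moved in both directions. Of 10 genes, 7 were tested, 4 were called lower (57.1%, beside 10.6% of all genes tested) and 2 higher, and the median log2 fold change was -1.40. HES4 had 24 and 23 counts with IRF-1 overexpression against 411 and 380 in control cells (log2 fold change -4.53, SE 0.28, adjusted p = 0.000163 in edgeR). HES3 (-2.07), BHLHE41 (-1.81) and HEY2 (-1.40) were also called lower. HELT, a HEY-related repressor of midbrain GABAergic progenitors, had 791 and 211 counts with IRF-1 overexpression against 7 and 5 in control cells (5.83, SE 0.691). HELT was too low for the filter in both controls and had to be higher to be tested. The count of higher calls is therefore not compared with the share of all genes tested (8.61% higher). HES6, which opposes HES1 and favours neuronal differentiation, was higher by a log2 fold change of 1.09. Without overexpressing replicate 1 the calls of HEY2 (-1.03), BHLHE41 (-1.44) and HES6 (1.03) were lost and HELT was at 4.79. Without overexpressing replicate 3 HES3 was at -2.80 and HELT at 6.43, and without control replicate 8 HES6 (0.80) was not called. HEYL had 0 counts in all 4 libraries.

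**Figure D2:**
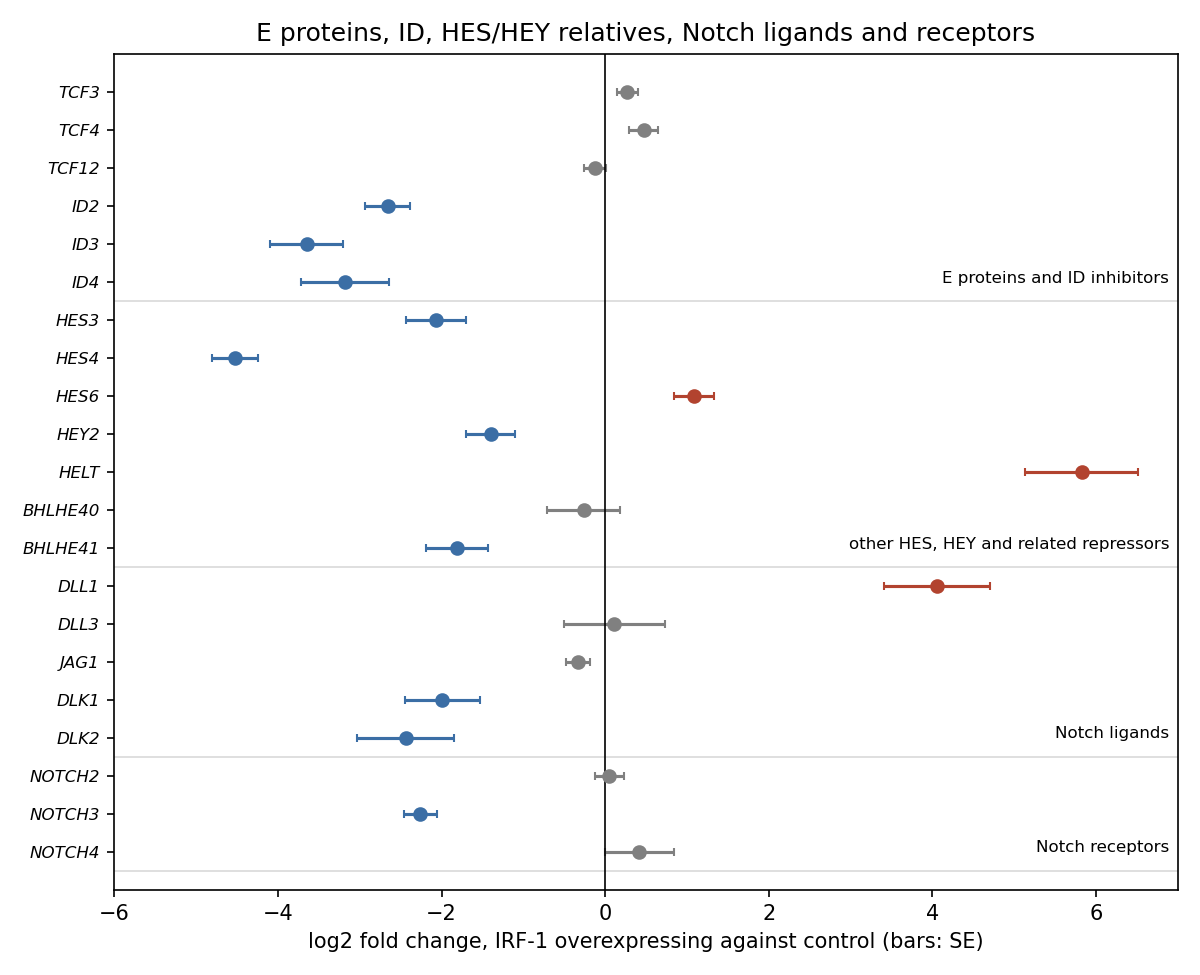
Log2 fold change of IRF-1 overexpressing against control cells (horizontal axis, with bars of 1 SE) for each tested gene of 4 lists, with 2 libraries in each group. Red genes were called higher, blue genes lower and grey genes neither; ID2, ID3 and ID4 lie between -3.65 and -2.66, and HELT (5.83) and DLL1 (4.06) are the highest.

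Of 7 Notch ligand genes, 5 were tested, 1 was called higher and 2 lower, with a median log2 fold change of -0.33. DLL1, the ligand that proneural factors switch on, had 141 and 93 counts with IRF-1 overexpression against 1 and 9 in control cells (log2 fold change 4.06, SE 0.65). Leaving out control replicate 6 gave 3.29 and control replicate 8 gave 6.19. DLL1 was too low for the filter in both controls and had to be higher to be tested. The counts of ligand calls are therefore not compared with the shares of all genes tested (8.61% higher and 10.6% lower). JAG1 had 9869 and 6914 against 7613 and 7532 counts and was not called (-0.33). DLK1 and DLK2, ligand-like proteins without the usual Notch-binding domain, were lower (-1.99 and -2.44). Their calls were lost without overexpressing replicate 3 (-1.56 and -2.02), DLK2 was also not called without control replicate 6 (-1.92), and without overexpressing replicate 1 they were at -2.64 and -3.11. Of the receptors, NOTCH3 had 472 and 582 counts with IRF-1 overexpression against 1719 and 2003 in control cells (-2.26, SE 0.202, adjusted p = 0.000468 in edgeR). It shares 228 exon bases with an unnamed gene on the opposite strand. NOTCH2 (0.05) and NOTCH4 (0.42) were not called, NOTCH2 was at -0.12 without overexpressing replicate 1 and at -0.11 without control replicate 6, and NOTCH1 had no named identifier and is not reported.

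Genes that process the receptors or act with them in the nucleus were counted beside all genes tested (8.61% called higher and 10.6% lower). The shares called among the processing genes were near these, so nothing is read from their count. Of 26 genes for glycosylation, cleavage and trafficking, 25 were tested, 3 were called higher (12%) and 2 lower (8%), and the median log2 fold change was -0.16. MFNG, a glycosyltransferase that modifies Notch, was higher (2.48, SE 0.44, adjusted p = 0.00535 in edgeR), as were NEURL1B (1.64) and PSEN2 (1.06), a catalytic part of gamma-secretase. NUMBL, an inhibitor of Notch, was lower (-1.88, SE 0.203, adjusted p = 0.000835 in edgeR), as was DTX3 (-1.60), which shares exon bases with PIP4K2C and ARHGEF25. Without overexpressing replicate 1 the calls of NEURL1B (1.54) and PSEN2 (0.94) were lost, without control replicate 6 that of PSEN2 (0.86), and without overexpressing replicate 3 DTX3 was at -2.48 and LFNG (-0.99 with all libraries) was called lower at -1.45. FURIN (-1.15) was called lower without control replicate 8 (-1.63) and with no filter on low counts (-1.13), and was at -0.42 and not called without control replicate 6.

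Of 22 nuclear genes, 18 were tested, 2 were called higher and 1 lower, and the median was -0.04. TLE1, a corepressor that HES proteins recruit, had 2502 and 1834 counts with IRF-1 overexpression against 359 and 534 in control cells (1.82, SE 0.182, adjusted p = 0.000655 in edgeR). MAML3, a Notch coactivator, was higher (1.11) and KAT2B, an acetyltransferase, lower (-1.25). MAML3 was not called without overexpressing replicate 1 (0.99) or control replicate 6 (0.94), KAT2B was not called without control replicate 6 (-0.96), and TLE5 (-0.77) was called lower without control replicate 8 (-1.06). MAML3 shares 3069 exon bases with MGST2 on the opposite strand. RBPJ, the DNA-binding partner of Notch, was at 0.34 and not called.

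Another list held genes that proneural factors are known to switch on or that follow in neuronal differentiation. Of 27 genes, 17 were tested, and 10 were called higher and 1 lower. Of these, EBF2, GADD45G, PRDM8, SCRT1 and TLX3 were too low for the filter in both controls and passed it through the overexpressing group. They had to be higher to be tested, so the count of calls is not compared with the share of all genes tested (8.61% higher and 10.6% lower). TLX3, a selector of sensory neurons, had 1077 and 750 counts with IRF-1 overexpression against 2 and 0 in control cells, a pooled ratio of 663-fold with an exact 95% counting interval from 183 to 5476. SRRM4, a neural splicing factor, had 1010 and 484 against 5 and 12 counts (log2 fold change 5.95, SE 0.446, adjusted p = 0.00025 in edgeR), and SOX11 had 1283 and 844 against 73 and 46 (3.67, SE 0.297, adjusted p = 0.000332 in edgeR). EBF2 (4.18), POU4F1 (2.74), ISL1 (2.41) and MYT1L (1.84) were higher as well. PRDM8 had 22 and 42 counts against 0 in both controls, at least 7.99-fold higher. SCRT1 had 44 and 25 against 0 and 1 counts, a pooled ratio of 50.1-fold with an exact counting interval from 8.69 to 2005. GADD45G had 20 and 14 against 3 and 0 counts, a pooled ratio of 8.22-fold with an exact counting interval from 2.59 to 41.8. RND2, a target of neurogenins in migrating neurons, was lower (-1.46, SE 0.23, adjusted p = 0.00337 in edgeR).

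Of these calls, those of GADD45G and MYT1L were lost in a fit that left out a library. GADD45G was not called without overexpressing replicate 1 (2.80), overexpressing replicate 3 (3.05) or control replicate 8 (1.92), nor by DESeq2 (2.99). MYT1L was not called without overexpressing replicate 3 (1.54) and was at 2.47 without control replicate 8. RUNX1T1 (2.00) was called higher without control replicate 6 (3.07), with library totals alone (2.00) and with no filter on low counts (2.02), and was at 1.37 and not called without control replicate 8, nor was it called by DESeq2 (2.01). Without control replicate 6, EBF2 was at 3.54 and SCRT1 at 4.57, and without control replicate 8 EBF2 was at 5.51, TLX3 at 8.22 and SRRM4 at 6.63. No fold change is given for GADD45G and TLX3 without control replicate 6, for SCRT1 without control replicate 8 or for PRDM8 in any fit, as the controls then had 0 counts. MYT1, another target, had 56 and 4 counts with IRF-1 overexpression against 0 in the controls, at least 6.73-fold higher but mostly from replicate 1. POU4F2 had 32 and 9 counts against 0 in the controls, at least 4.73-fold higher. ST18 had 11 in each overexpressing library against 0 in the controls, at least 2.67-fold higher. MYT1, POU4F2 and ST18 did not pass the filter. With no filter on low counts they were called higher, and DESeq2 called MYT1 and POU4F2 higher but not ST18.

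Some markers of neurons were higher in the overexpressing cells. Of 14 marker genes, 12 were tested, 6 were called higher (50%) and 0 lower, beside 8.61% and 10.6% of all genes tested, and their summed level was 834 and 427 CPM in overexpressing replicates 1 and 3 and 217 and 249 CPM in the controls. STMN2 was the most abundant over the 4 libraries, with 8124 and 3223 against 1137 and 1334 counts. TUBB3, neuronal beta-tubulin, had 8726 and 2443 counts with IRF-1 overexpression against 97 and 185 in control cells (log2 fold change 4.80, SE 0.542, adjusted p = 0.000961 in edgeR), and leaving out overexpressing replicate 1 gave 3.81 and overexpressing replicate 3 gave 5.39. INA (4.13), SYT1 (3.19), SNAP25 (1.97) and ELAVL3 (1.23) were also called, while MAP2, a neuronal microtubule protein, had 1384 and 1625 against 1502 and 2012 counts, was lower per library size in both overexpressing libraries and missed the fold threshold (-0.66, SE 0.193, adjusted p = 0.0375 in edgeR). RBFOX3, which marks mature neurons, had 6 and 3 against 1 and 0 counts. Without overexpressing replicate 1, ELAVL3 (0.82) and SNAP25 (1.53) were not called, STMN2 was at 1.07 and INA at 3.31. INA was at 3.54 and SNAP25 at 2.63 without control replicate 6, INA at 5.24 and SYT1 at 3.93 without control replicate 8, and DCX (1.56) was called without overexpressing replicate 3 (2.17) and with no filter on low counts (1.58). DCX had 142 and 37 counts with IRF-1 overexpression against 21 in each control, and was at 0.50 and not called without overexpressing replicate 1. The neuronal sum was higher in replicate 1 than in replicate 3. So were NEUROG2 (3.42 and 2.36 CPM), NEUROD4 (0.926 and 0.288 CPM) and HEY1 (18 and 12.2 CPM), while NEUROG1 was at 4.71 CPM in replicate 1 and 6.11 CPM in replicate 3. The part of neuronal cells in the levels of the bHLH genes was not tested.

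Markers of other cell types also differed between the groups. Of 10 trophoblast marker genes, 6 were tested and 4 were called lower (KRT8, KRT18, TFAP2C and TEAD4), which is 66.7% beside 10.6% of all genes tested. Their summed level was 288 and 1130.2 CPM in the overexpressing libraries and 15683 and 9619.7 CPM in the controls, with the keratin gene KRT8 the most abundant. CDX2 and HAND1, which define trophoblast, had 0 counts in all 4 libraries. Without overexpressing replicate 1 KRT8 (-3.95) was at -3.25 and KRT18 (-5.77) at -4.96, and without overexpressing replicate 3 they were at -5.28 and -7.65. Of 9 endocrine marker genes, 4 were tested, 2 were called higher (CHGA and SCG3) and 1 lower (PTPRN). With 4 genes tested, these counts are not compared with the shares of all genes tested (8.61% higher and 10.6% lower). The endocrine sum was 299 and 270.2 CPM against 65.7 and 44.5 CPM, mostly from CHGA, and INS, GCG and PAX4 had 0 counts throughout. PTPRN (-2.70) was not called without overexpressing replicate 1 (-2.12) or control replicate 6 (-1.55), and was at -3.52 without overexpressing replicate 3 and -3.34 without control replicate 8.

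Of 8 neural crest and glia marker genes, 4 were tested, 1 was called higher (TFAP2B) and 3 lower, ERBB3 and GFAP among them. With 4 genes tested, these counts are not compared with the shares of all genes tested (8.61% higher and 10.6% lower). The sums of this list were 42.1 and 44.4 CPM against 92.9 and 91.4 CPM, with ERBB3 the most abundant. SOX10, which defines neural crest, had 6 and 3 against 3 and 7 counts. GFAP (-2.30) was not called in any fit that left out a library (between -2.59 and -2.07), nor by DESeq2 (-2.33), and TFAP2B (2.10) was not called without overexpressing replicate 3 (1.85). Of 10 fibroblast and feeder marker genes, 4 were tested, 1 was called higher (COL1A2) and 3 lower (COL1A1, DCN and PDGFRB). These counts are likewise not compared with the shares of all genes tested. The sums of this list were 144 and 88 CPM against 204 and 105 CPM, with COL1A2 the most abundant. COL1A2 (1.08) was not called without overexpressing replicate 1 (0.65) or control replicate 8 (0.78). DCN (-3.63) was not called without overexpressing replicate 3 (-3.18) and was at -4.38 without overexpressing replicate 1. PDGFRB (-5.49) was at -6.32 without overexpressing replicate 3 and -4.79 without control replicate 6. The part of these cell types in the levels of the bHLH genes was not tested.

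Of 19 pluripotency marker genes, 11 had a named identifier, 8 were tested, 0 were called higher and 4 lower (50%), beside 8.61% and 10.6% of all genes tested, with sums of 1339.5 and 1373 CPM in the overexpressing libraries and 1581 and 1742 CPM in the controls. DNMT3B was the most abundant, with 25707 and 20918 against 10849 and 17433 counts, and was not called. These counts are not scaled, and the overexpressing libraries together were 1.38 times as large as the controls. LIN28A (-1.34), CDH1 (-2.25), ESRRB (-4.19) and KLF5 (-1.93) were called lower. CDH1 was at -1.66 without overexpressing replicate 1 and -3.21 without overexpressing replicate 3. KLF5 was not called by DESeq2 (-1.92) or without overexpressing replicate 1 (-1.54), overexpressing replicate 3 (-2.38) or control replicate 8 (-1.51). NANOG had 8 and 11 counts with IRF-1 overexpression against 5 and 9 in control cells, and PRDM14 had 0 in all 4, so these defining markers were near or at the floor in both groups. POU5F1 and SOX2 had no named identifier and are not reported.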

How the data were processed

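The RNA-seq data were counts of reads per gene that the authors deposited for 4 libraries. According to the methods and the submitters' processing notes, reads were mapped to the Sus scrofa 11.1 genome with HISAT2 2.0.4 and counted with featureCounts 1.6.4; htseq-count is also named for counting, and how strand and multi-mapped reads were handled is not given in the sources used here. Exon bases shared with other genes were therefore counted for each named gene. Symbols were matched for 14692 of 24358 genes. ChIP-Seq libraries were not analysed here, and no sequences were used.

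IRF-1 overexpressing cells (n = 2) were compared with control cells (n = 2) in edgeR 4.0.16 (R 4.3.3) with TMM scaling, filterByExpr, quasi-likelihood tests and p-values adjusted by Benjamini-Hochberg for 13250 genes. The SE is the log2 fold change divided by the square root of F. CPM used TMM-scaled totals, and 1 count was worth between 0.0403 and 0.064 CPM. Floors and intervals cover counting error only. An exact two-sided permutation test of 2 against 2 cannot go below 0.333 and was not used. The statistics were tested on simulated data. The genes named were IRF1, the 9 bHLH genes, genes of 9 pathway and 6 marker lists that were called (others where defining or abundant, or where a call changed), and the 5 genes nearest in pattern to the most abundant activator and repressor. A few called list genes are included in counts and sums but are not reported by name. The 9 genes and the lists were chosen with earlier results of these data known. Alternatives were size factors of the DESeq2 type, library totals alone, no filter, DESeq2 1.42.0, totals without 37 mitochondrial and the 10 most abundant genes, and each library left out. Python 3.11.15 with pandas 2.3.3, scipy 1.17.1 and matplotlib 3.10.9 was used for tables and plots.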

Additional observations from a re-analysis of the deposited data

How the results depend on the processing

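Across all genes, 1141 were called higher and 1410 lower. Leaving out each library in turn gave between 756 and 1156 genes higher and between 874 and 1548 lower, with the lowest counts without overexpressing replicate 1. A group then holds 1 library, which is taken to vary like the other group. Of the 9 bHLH genes, between 2 and 4 were called higher and between 1 and 2 lower in these fits, and of the pathway genes between 20 and 26 higher and between 14 and 20 lower (27 and 19 with all libraries). Size factors of the DESeq2 type, library totals alone, no filter and DESeq2 moved no such count by more than 1.5 times. Without control replicate 6, the log2 fold change changed sign for HES1 (0.42) and for the genes chosen as nearest to it over the same libraries, where this follows from the choice: ALKBH7 (0.33), CA2 (0.34), MAP1LC3A (0.62), GABRR1 (0.41) and CDC42EP1 (0.70), none of which had been called with all libraries. Without control replicate 8 their values were -1.03, -1.08, -1.23, -1.94, -1.50 and -1.0 in the same order, and HES1, ALKBH7 and CA2 were then called lower. Why the controls differ was not tested. No paired analysis was possible because the groups share no replicate numbers. NEUROD1 did not pass the filter, NHLH1 was called in no fit and its groups overlapped, and the call of NEUROD4 depended on the filter and the libraries used.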

Other observations

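Neural progenitor genes moved in both directions. Of 27 genes, 22 were tested, 9 were called higher and 4 lower. Several of those called higher, PAX7, NKX2-2, LHX2 and FEZF2 among them, were too low for the filter in both controls and had to be higher to be tested, so the count of calls is not compared with the share of all genes tested (8.61% higher and 10.6% lower). NES (-2.06), FABP7 (-1.31), MSI1 (-1.23) and CDH2 (-1.06) were called lower. POU3F3 had 1099 and 806 counts in overexpressing replicates 1 and 3 and 27 and 47 in control replicates 6 and 8 (log2 fold change 4.22, SE 0.263, adjusted p = 0.000167 in edgeR). PAX7 had 120 and 185 counts against 0 and 2, a pooled ratio of 111-fold with an exact 95% counting interval from 30.4 to 918. FEZF2 had 74 and 28 against 0 and 3 counts, a pooled ratio of 24.7-fold with an exact counting interval from 8.21 to 122. NKX2-2 (3.37), LHX2 (2.73), NR2F1 (1.39), SIX3 (1.32) and NKX6-1 (1.13) were higher as well.

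Without overexpressing replicate 1, FEZF2 (3.82), LHX2 (2.15), MSI1 (-0.99) and CDH2 (-0.92) were not called, and without overexpressing replicate 3 NR2F1 (0.79) was not. LHX2 was not called without control replicate 6 (1.98), where FEZF2 was at 3.62 and PAX7 at 5.83. LHX2 was at 4.71 without control replicate 8. FEZF2 and PAX7 had 0 counts in control replicate 6, so no fold change is given for them without control replicate 8. The count of NR2F1 is uncertain because of shared exon bases.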
